A study of Homo sapiens with 9 samples.

Results

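Transcripts of 39 human genes for the uptake, activation and oxidation of fatty acids were followed with RNA-seq in the human glioblastoma line LN229, an established cell line, before and after exposure to sodium formate. The 39 were listed by symbol and found through their Ensembl identifiers among the 23727 genes of the count table. All 39 had an entry, and 34 had enough counts to enter the tests, which covered 15273 genes. The 9 libraries formed 3 groups of 3: untreated cells taken at 0 h, cells given 500 µM sodium formate for 8 h, and cells given the same dose for 24 h. The medium of all groups held 10% fetal bovine serum, 2 mM glutamine and 17 mM glucose. A source label spells the line LN299, and the name in the growth protocol is used here. All 3 untreated libraries come from 0 h, so formate and time in culture cannot be told apart. Nothing in the labels says whether replicates were separate cultures, so the p-values measure only the spread between these libraries, which may be technical.

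Long-chain fatty acids enter cells through membrane proteins such as CD36 and the SLC27 fatty acid transport proteins, and are carried in the cytosol by FABP proteins. Long-chain acyl-CoA synthetases (ACSL) couple them to coenzyme A, and the resulting acyl-CoA is used either for membrane and storage lipids or for oxidation. For mitochondrial oxidation, the carnitine shuttle (CPT1, SLC25A20, CPT2) moves the acyl group inward, and acyl-CoA dehydrogenases, hydratases, hydroxyacyl-CoA dehydrogenases and thiolases shorten the chain in repeated cycles. Electrons from the acyl-CoA dehydrogenases pass through the electron transfer flavoprotein to the respiratory chain. Very long and branched chains start in peroxisomes, and PPAR nuclear receptors with their coactivators govern many of these genes.

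The libraries held 22222298 to 25848242 counts, of which the 39 genes took 0.214% to 0.291%. At this depth 3 counts correspond to 0.116 to 0.135 CPM, which are counts relative to a library size adjusted by TMM (trimmed mean of M values) factors. On the first principal component of the 500 most variable genes, untreated replicate 1 (-23.5) and replicate 1 of 8 h (-21.6) stood apart from the other untreated and 8 h libraries (-3.41 to -0.798), while the 24 h libraries lay at 9.56 to 25. Of 12 glial and glioma markers, 10 had an entry and summed to 6280 to 8640 CPM untreated, 6420 to 7350 at 8 h and 5360 to 6210 at 24 h. Most of that sum and of its fall was VIM, at 4170 to 6280 CPM untreated and 3200 to 3920 at 24 h. Of the 8 markers tested, 2 passed at 24 h against 0 h by edgeR, both higher, S100B (log2 fold change 1.38, adjusted p 0.046) and SLC1A3 (1.58, adjusted p 0.0277). CD44 and NES were abundant, while GFAP, the defining astrocyte marker, had at most 10 counts in a library. Of 22 markers of other cell types, 16 had an entry and summed to 331 to 375 CPM untreated, 287 to 363 at 8 h and 446 to 603 at 24 h. PTPRC, CD68, PECAM1, EPCAM and KRT19 had at most 3 counts in any library, and 3 of the 10 tested passed at 24 h against 0 h, all higher, VWF and SNAP25 among them. Over all tested genes 4.25% passed in that comparison by edgeR, 2.47% higher. The part of these shifts in the results below was not tested, and in bulk RNA fewer cells of a type and less RNA per cell cannot be told apart.

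In untreated cells the most abundant transcripts per exon length belonged to the core of mitochondrial oxidation and to 1 synthetase. HADHA, the trifunctional protein subunit with hydratase and dehydrogenase activity, had a level of 63.3 ± 5.87 CPM per kilobase of exon (mean ± SD, n = 3, as for all such values). ACADVL, the very-long-chain acyl-CoA dehydrogenase, had 58.6 ± 4.24. ACSL3, a synthetase of the endoplasmic reticulum and lipid droplets, had 56 ± 14.6, and ECHS1, the short-chain enoyl-CoA hydratase, 53.3 ± 13.7. The libraries of these 4 genes overlapped from each to the next in that order, and together the 4 held 47.4% of the summed level of the 39 genes. SLC27A4 and HADHB followed at 27.5 each, ETFA at 21.6, ACSL1 at 19.6, HSD17B4 at 15.7, ACSL4 at 15.5 and CPT1A at 15.4 CPM per kilobase. Exon length here is that of all annotated exons of a gene merged, so this order and the share depend on the annotation. For ECHS1 it was 1617 bases and for HSD17B4 10664. Without division by length HSD17B4, at 168 ± 5.8 CPM, lay above ECHS1, at 86.2 ± 22.1 CPM. Of the 38 neighbouring pairs in the order of levels, 31 overlapped in their libraries and 7 did not. Gaps without overlap lay between ECHS1 and SLC27A4, between ACSL1 and HSD17B4, and between ETFDH and PPARG. The other gaps lay between ACADS and ACAA2, on either side of SLC27A3, and between CPT1C and ACSL5.

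The low end of the order held several genes that are prominent in other tissues. CPT1C, the CPT1 form known from neurons, had 0.251 ± 0.0109 CPM per kilobase against 15.4 ± 2.23 for CPT1A, the form known from liver. PPARGC1B, a PPAR coactivator, stood at 0.27 ± 0.0677 and ACSL5 at 0.112 ± 0.0385 CPM per kilobase. CD36, the scavenger receptor that aids fatty acid entry, had 3, 3 and 1 counts untreated, 0, 0 and 1 at 8 h, and 2, 1 and 1 at 24 h. FABP3, the heart-type binding protein, had 2, 3 and 0 counts untreated, 0, 1 and 0 at 8 h, and 0, 1 and 1 at 24 h, and the annotation holds 1 pseudogene copy of it. All libraries of these receptor and carrier genes thus lay at or under 3 counts. ACSL6, the synthetase known from brain, had 0, 3 and 0 counts untreated, 0, 1 and 0 at 8 h, and 0, 1 and 6 at 24 h. PPARGC1A, the coactivator known for mitochondrial biogenesis, had 0, 0 and 2 counts untreated, 2, 2 and 4 at 8 h, and 1, 0 and 2 at 24 h. FABP5, the epidermal-type binding protein, was listed at 0 in all 9 libraries. The annotation holds 13 pseudogene copies of FABP5, 2 of them in the table with 5 and 4 counts over all libraries, so its count is uncertain. These 5 genes were not tested, and at this depth no difference in them was detectable.

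**Figure D1:**
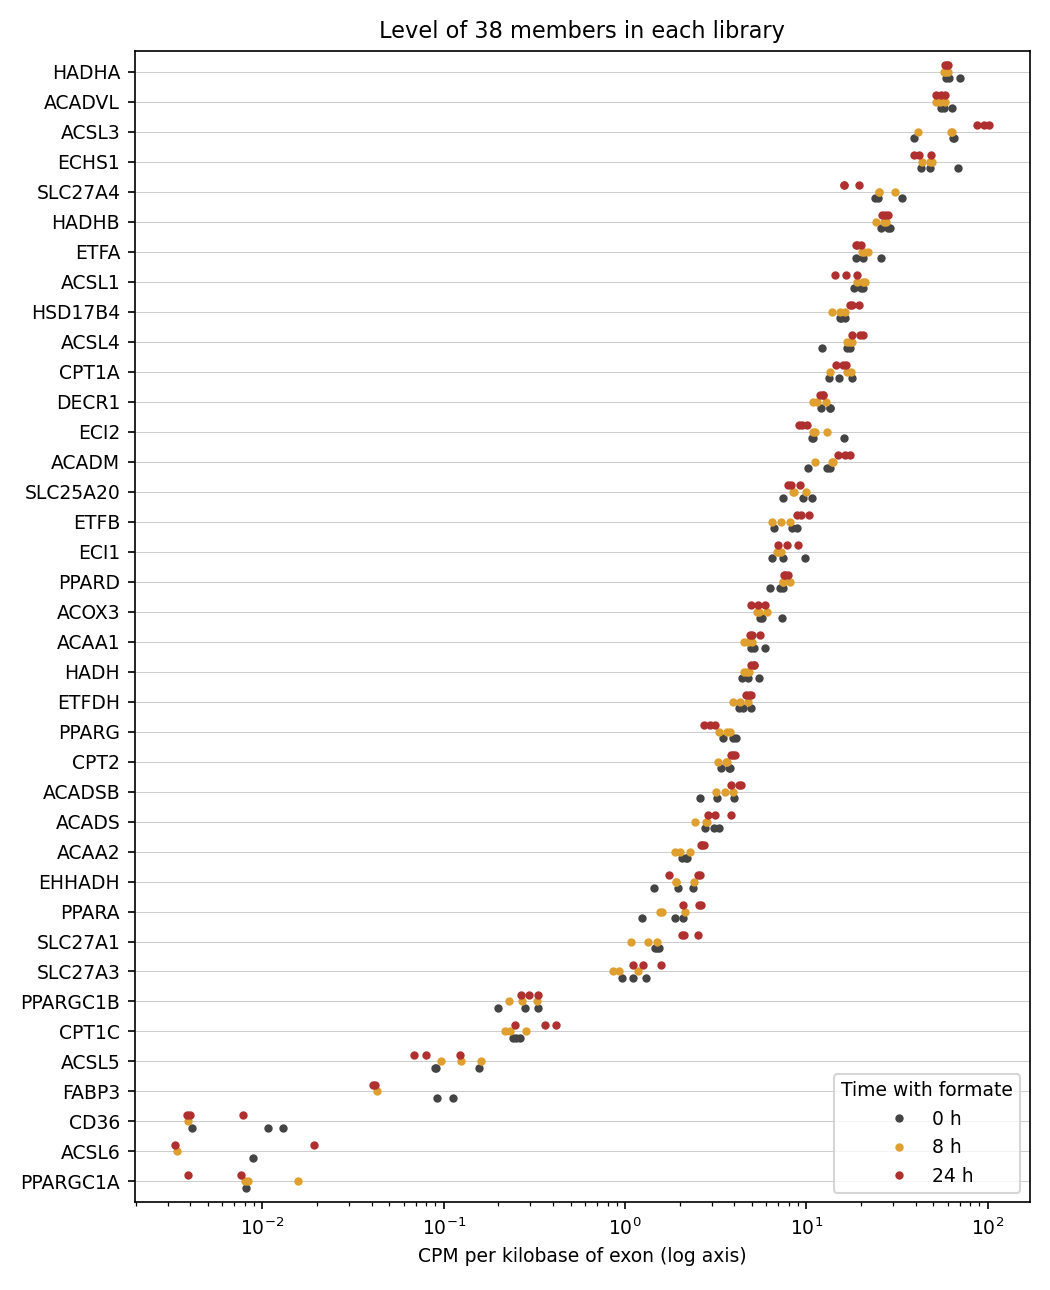
Level of 38 of the 39 genes in each library, in CPM per kilobase of exon on a log axis, ordered by the untreated mean; each point is a library, coloured by time with formate, and zeros are not drawn. FABP5 is left out because it had no count. Levels run from 63.3 CPM per kilobase for HADHA to under 0.01 for CD36, ACSL6 and PPARGC1A, and at 24 h the ACSL3 points lie above all its other points.

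After 8 h of formate no difference in these genes was detected. Of the 34 tested genes 0 passed the quasi-likelihood test of edgeR at an adjusted p of 0.05, as did 0% of all tested genes. Adjustment was by Benjamini-Hochberg over all genes, as for every adjusted p by edgeR here. DESeq2 also called 0 of the 34, and its share of all genes at 8 h is not given here. None of the 34 had an unadjusted p under 0.05 by edgeR, beside 0.517% of all genes, and the smallest was 0.14. Fitted log2 fold changes ran from -0.20 for SLC27A1 to 0.19 for ACSL5, with a median of -0.05 beside -0.02 over all genes. Of the 34, 33 lay within 0.2 of 0 on the log2 scale. Untreated and 8 h libraries overlapped in all 34 tested genes, where 3.31% of all genes had groups that did not overlap.

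After 24 h a pair of fatty acid transport genes passed the test, in opposite directions. The share of the 34 tested genes that passed was near that of all genes, with or without the replicate number as a block. With that block ACADM, ACADSB and ECI2 of the oxidation enzymes also passed (adjusted p 0.00394, 0.0442 and 0.0226 by edgeR). Of the 34 tested genes, 2 (5.88%) passed the edgeR test, SLC27A1 higher and SLC27A4 lower, beside 4.25% of all tested genes (2.47% higher and 1.77% lower). The median log2 fold change of the 34 was 0.06 beside 0.01 over all genes, and 16 of the 34 (47.1%) lay within 0.2 of 0, beside 45.1% of all genes. Untreated and 24 h libraries did not overlap for 12 of the 34, 9 higher and 3 lower at 24 h, beside 30.3% of all genes (15.9% higher and 14.4% lower). The unadjusted p was under 0.05 in 10 of the 34, beside 26.4% of all genes. With the replicate number as a block, 9 of the 34 passed (26.5%, 6 higher and 3 lower) beside 24.1% of all genes (12.6% higher and 11.6% lower). Without replicate 2 or without replicate 3 of 24 h no gene of the 34 passed unless the block was used. Calls over all genes also varied with the library left out, and their share in those fits is not given here. The loss can thus not be read as particular to these genes.

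**Figure D2:**
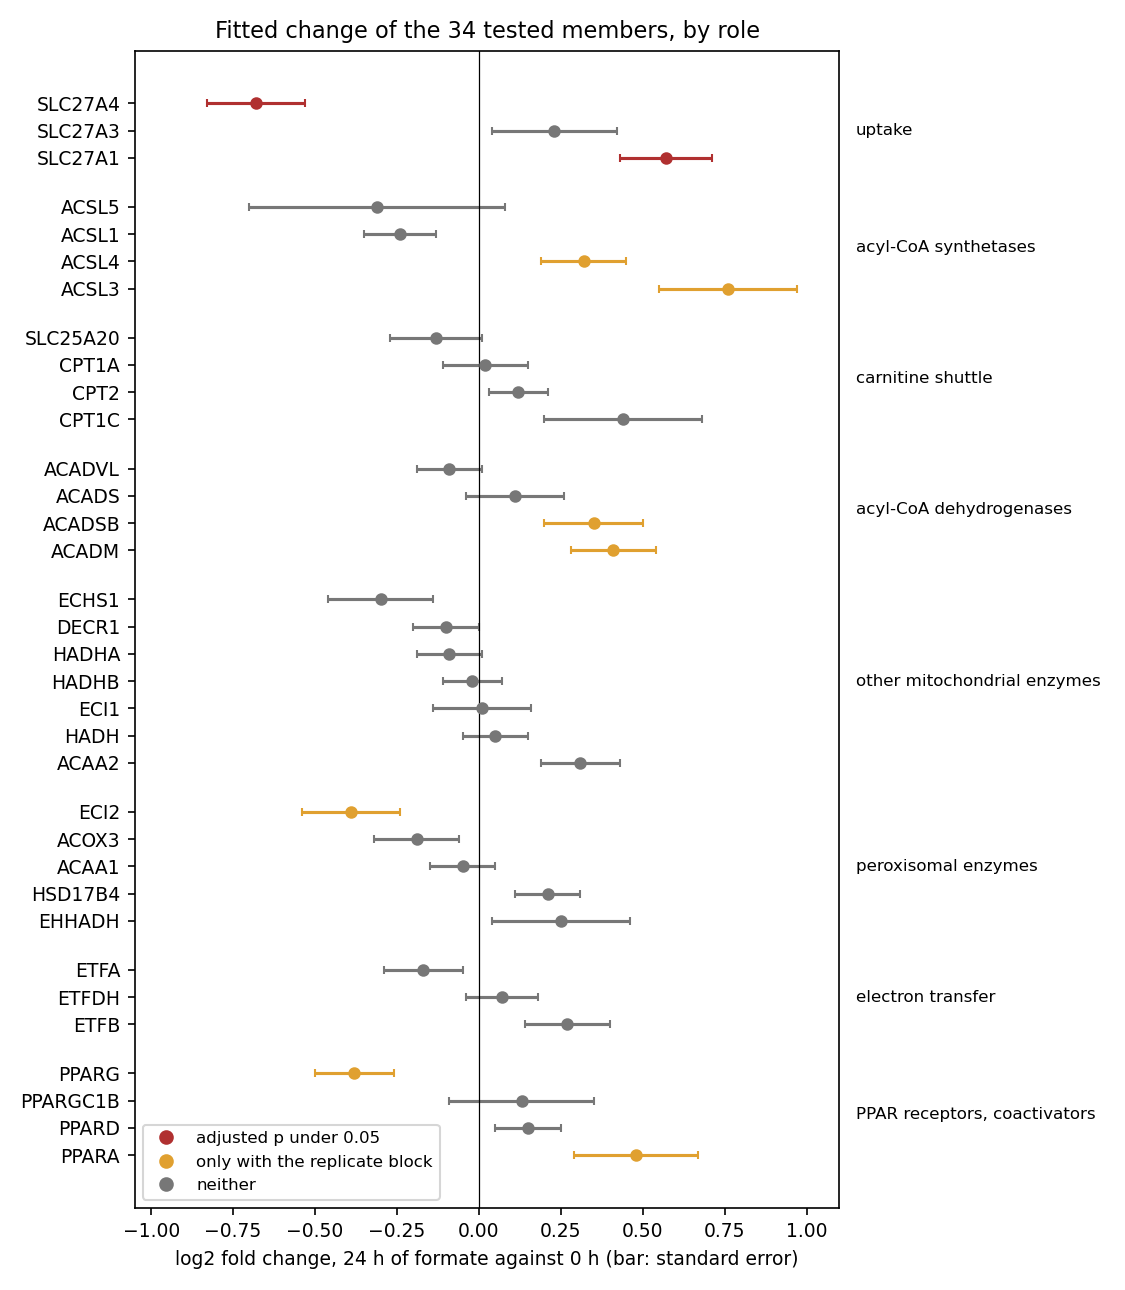
Fitted log2 fold change at 24 h of formate against 0 h for the 34 tested genes, grouped by role; points are estimates from 3 libraries a group and bars are standard errors. Red marks an adjusted p under 0.05, orange an adjusted p under 0.05 only when the replicate number was a block, and grey neither. SLC27A4 lies lowest at -0.68 and ACSL3 highest at 0.76, while CPT1A, ECI1 and HADHB lie within 0.02 of 0.

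The SLC27 genes encode fatty acid transport proteins, which also have acyl-CoA synthetase activity. SLC27A1 (FATP1; ENSG00000130304, chromosome 19, 17468769 to 17506168, plus strand, GRCh38) is the form known from muscle and fat. Its level was 12, 12.4 and 12.7 CPM in the untreated libraries, 8.85, 12.3 and 11 at 8 h, and 17.0, 17.4 and 20.7 at 24 h. All 3 libraries of 24 h lay above all 6 others. The log2 fold change at 24 h against 0 h was 0.57 (standard error 0.14, adjusted p 0.0441 by edgeR), and with the replicate block the adjusted p was 0.00544. This call was lost without any of 7 single libraries. The adjusted p was 0.0882, 0.0738 and 0.068 without untreated replicates 1, 2 and 3, 0.0523 and 0.0707 without replicates 2 and 3 of 8 h, and 0.148 and 0.206 without replicates 2 and 3 of 24 h. With the block SLC27A1 passed in all 9 fits that each left out 1 library. The call was also lost with upper-quartile scaling (adjusted p 0.0529) and with only the untreated and 24 h libraries in the fit (0.0618).

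SLC27A4 (FATP4; ENSG00000167114, chromosome 9, 128340646 to 128361470, plus strand) is a widely expressed form of the same family. Its level was 105, 77.6 and 74.0 CPM in the untreated libraries, 95.2, 77.7 and 77.8 at 8 h, and 60.3, 49.8 and 49.8 at 24 h. The 24 h libraries all lay below the other 6, and replicate 1 was the highest of its group at each time. At 24 h against 0 h SLC27A4 fell by 0.68 on the log2 scale, with a standard error of 0.15 (adjusted p 0.0316 by edgeR, and 0.000317 with the block). The call was lost without replicate 2 (adjusted p 0.136) or replicate 3 (0.148) of 24 h, and with only the untreated and 24 h libraries in the fit (0.0572). SLC27A3, the remaining member of the family here, had 5.24 to 7.12 CPM untreated and 6.01 to 8.62 at 24 h, and the groups overlapped (log2 fold change 0.23, adjusted p 0.459). The summed level of the 6 uptake and binding genes, most of which was SLC27A4, was 104 ± 16.5 CPM untreated, 99.7 ± 8.18 at 8 h and 78.9 ± 4.61 at 24 h.

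The DNA upstream of the genes that differed most, and of HADHA as a gene that did not pass, is shown to place these measurements on the genome. The sequences are the 250 bases before the RefSeq transcription start, read 5′ to 3′ on the gene's strand in GRCh38.p14, with capitals marking the CCAAT box and the GC box GGGCGG on either strand. They lie at chr19:17470274-17470523 for SLC27A1 (plus strand), chr9:128340277-128340526 for SLC27A4 (plus strand), chr2:222860786-222861035 for ACSL3 (plus strand) and chr2:26244633-26244882 for HADHA (minus strand). RefSeq and GENCODE starts differ, so the window of SLC27A1 lies inside the GENCODE gene model and those of ACSL3 and HADHA lie partly inside it.
SLC27A1: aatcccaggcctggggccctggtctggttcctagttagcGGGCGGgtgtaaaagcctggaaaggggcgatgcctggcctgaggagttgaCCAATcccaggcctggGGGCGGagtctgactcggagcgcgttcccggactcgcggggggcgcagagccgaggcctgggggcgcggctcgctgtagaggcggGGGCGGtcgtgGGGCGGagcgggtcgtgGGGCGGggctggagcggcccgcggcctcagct
SLC27A4: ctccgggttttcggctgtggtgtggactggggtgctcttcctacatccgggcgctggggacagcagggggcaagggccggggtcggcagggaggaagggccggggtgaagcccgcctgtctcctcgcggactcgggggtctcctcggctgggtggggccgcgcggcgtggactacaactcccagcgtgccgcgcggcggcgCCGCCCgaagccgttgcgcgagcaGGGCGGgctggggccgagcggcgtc
ACSL3: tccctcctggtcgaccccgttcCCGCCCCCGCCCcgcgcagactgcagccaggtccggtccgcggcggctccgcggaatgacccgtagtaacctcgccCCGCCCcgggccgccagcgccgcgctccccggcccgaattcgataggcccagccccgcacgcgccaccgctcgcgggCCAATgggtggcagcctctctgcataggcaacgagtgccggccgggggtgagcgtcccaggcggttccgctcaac
HADHA: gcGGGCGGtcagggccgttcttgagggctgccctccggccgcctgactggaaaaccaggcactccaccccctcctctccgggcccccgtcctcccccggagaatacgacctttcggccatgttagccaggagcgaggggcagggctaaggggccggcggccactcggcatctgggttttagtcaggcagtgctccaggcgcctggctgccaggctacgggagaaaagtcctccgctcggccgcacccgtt
SLC27A1 held 1 CCAAT and 5 GGGCGG matches, SLC27A4 0 and 2, ACSL3 1 and 3, and HADHA 0 and 1. The GC content was 72.8% for SLC27A1, 75.2% for SLC27A4 and for ACSL3, and 68.8% for HADHA.

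The same search covered all 35116 windows of this length in the RefSeq table, of which 64 belonged to 34 of the 39 genes. CCAAT was found on either strand in 32% of all windows and 18.8% of the 64, and GGGCGG in 42.6% and 53.1%. CACGTG, the E-box, was in 6.34% of all windows and 1.56% of the 64, in PPARGC1A only. TCACNCCAC, a sterol regulatory element form, was in 0.883% and 4.69%, in windows of ACSL1, ACSL6 and PPARGC1B. AGGTCANAGGTCA, the direct repeat read by PPAR and RXR receptors, was in 0.0171% of all windows and in none of the 64. The single site AGGTCA, which overlaps that repeat, was in 12.1% and 9.38%, in windows of ACSL5, ACSL6 and PPARG. Several windows can belong to 1 gene and overlap, and a match describes letters in these windows and not binding.

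At 24 h against 0 h, the synthetase ACSL3 had the largest fitted difference of the 34 tested genes. ACSL3 (ENSG00000123983, chromosome 2, 222860934 to 222944639, plus strand) had 283, 469 and 463 CPM in the untreated libraries, 299, 456 and 462 at 8 h, and 634, 687 and 736 at 24 h. Replicate 1 was the lowest library of its group at each time, and all 24 h libraries lay above all others. The log2 fold change at 24 h was 0.76 (standard error 0.21), with an adjusted p of 0.06 by edgeR that did not pass. It passed with the replicate block (0.80, adjusted p 0.000795), with DESeq2 (adjusted p 0.00924), without a filter on low counts (0.0453) and without replicate 1 of 8 h (0.0447). Over the 9 unblocked fits that each left out 1 library, its value ran from 0.54 to 0.88. Of these fits 8 did not pass, with an adjusted p of up to 0.226 by edgeR. Paired by replicate number, the difference from untreated to 24 h on the log2 scale was 1.16, 0.55 and 0.67. The level per length of ACSL3 at 24 h was 94.7 ± 7.04 CPM per kilobase, above the 59.4 ± 1.45 of HADHA.

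The other synthetases did not share that size of change. ACSL4, which favours arachidonic acid, had 78.4, 111 and 108 CPM untreated, 114, 112 and 108 at 8 h, and 115, 131 and 126 at 24 h. Its 24 h libraries lay just above the others, with a log2 fold change of 0.32 at 24 h against 0 h (adjusted p 0.146 by edgeR, 0.0412 with the block). Leaving out untreated replicate 1, its lowest library, moved the value to 0.16 (adjusted p 0.325). The blocked call held in 2 of the 9 fits that left out 1 library, those that lacked untreated replicate 3 (0.0286) or replicate 1 of 8 h (0.0335), and the largest adjusted p, 0.131, was without replicate 2 of 24 h. ACSL1, a form known from fat and liver, ran from 115 to 129 CPM untreated, 120 to 132 at 8 h and 90.7 to 119 at 24 h (log2 fold change -0.24, adjusted p 0.195, and 0.0522 with the block). ACSL5 stood between 0.290 and 0.681 CPM in all libraries and did not pass, and 8.64% of its exons overlap genes on the opposite strand. The summed level of the 5 synthetases was 628 ± 122 CPM untreated, 644 ± 85.7 at 8 h and 915 ± 43.3 at 24 h, and most of the added level was in ACSL3.

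Of the 4 genes of the carnitine shuttle, the entry step of mitochondrial oxidation, 0 passed at 24 h against 0 h with or without the block, 0 passed with DESeq2, and 0 had an unadjusted p under 0.05 by edgeR. Over all tested genes 4.25% passed by edgeR, 24.1% passed with the block and 26.4% had an unadjusted p under 0.05. With 4 genes, counts of 0 beside these shares do not set the shuttle apart. CPT1A, the enzyme that controls this entry, had 99.2, 117 and 87.3 CPM untreated, 110, 116 and 88.7 at 8 h, and 108, 105 and 95.4 at 24 h. The 3 groups overlapped, the log2 fold change at 24 h was 0.02 (95% interval -0.26 to 0.31, adjusted p 0.927), and its sign depended on which libraries entered the fit. CPT2, the inner enzyme of the shuttle, had 39.5, 39.1 and 35.2 CPM untreated, 33.8, 38.1 and 37.4 at 8 h, and 42.3, 41.2 and 39.9 at 24 h. Its 24 h libraries lay above the others by a small margin (0.12, 95% interval -0.09 to 0.32, adjusted p 0.436), and 12% of its exons overlap genes on the opposite strand. SLC25A20, the carrier between both enzymes, had a log2 fold change of -0.13 and CPT1C 0.44 (adjusted p 0.572 and 0.261), and neither passed with the block. The annotation holds 1 pseudogene copy of SLC25A20. The summed level of the 4 genes was 159 ± 18.8 CPM untreated, 161 ± 15.6 at 8 h and 162 ± 7.85 at 24 h.

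Among the acyl-CoA dehydrogenases, which start each cycle, the long-chain and the medium-chain enzyme differed in their values. ACADVL had 308, 267 and 280 CPM untreated, 265, 253 and 283 at 8 h, and 268, 251 and 283 at 24 h, with overlap of all groups (log2 fold change -0.09, 95% interval -0.32 to 0.13, adjusted p 0.564). ACADM, the medium-chain enzyme (ENSG00000117054, chromosome 1, 75724347 to 75787575, plus strand), had 48.7, 64.8 and 61.9 CPM untreated, 53.0, 66.2 and 66.7 at 8 h, and 71.6, 83.5 and 78.5 at 24 h. The 24 h libraries of ACADM lay above the other 6. Its log2 fold change at 24 h was 0.41 (standard error 0.13, adjusted p 0.0874 by edgeR). With the block ACADM passed (0.42, adjusted p 0.00394) in this fit and in all 9 that left out 1 library. In the 9 unblocked fits that left out 1 library it ran from 0.28 to 0.49 and never passed (adjusted p 0.0769 to 0.299 by edgeR). ACADSB, the short branched-chain enzyme that also acts in isoleucine breakdown, had 16.2, 24.9 and 20.0 CPM untreated, 19.9, 24.5 and 22.1 at 8 h, and 27.4, 26.6 and 24.0 at 24 h. The ACADSB groups overlapped, and it passed only with the block (0.37, adjusted p 0.0442, against 0.35 and 0.167 without it). Unblocked and lacking untreated replicate 1 its value was 0.19 (adjusted p 0.44). That blocked call was lost in 8 of 9 fits that left out 1 library (adjusted p up to 0.203, without replicate 1 of 24 h) and held without untreated replicate 2 (0.0388). ACADS, the short-chain enzyme, had a log2 fold change of 0.11 (adjusted p 0.67). The summed level of these 4 genes was 372 ± 8.34 CPM untreated and 380 ± 14.0 at 24 h.

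**Figure D3:**
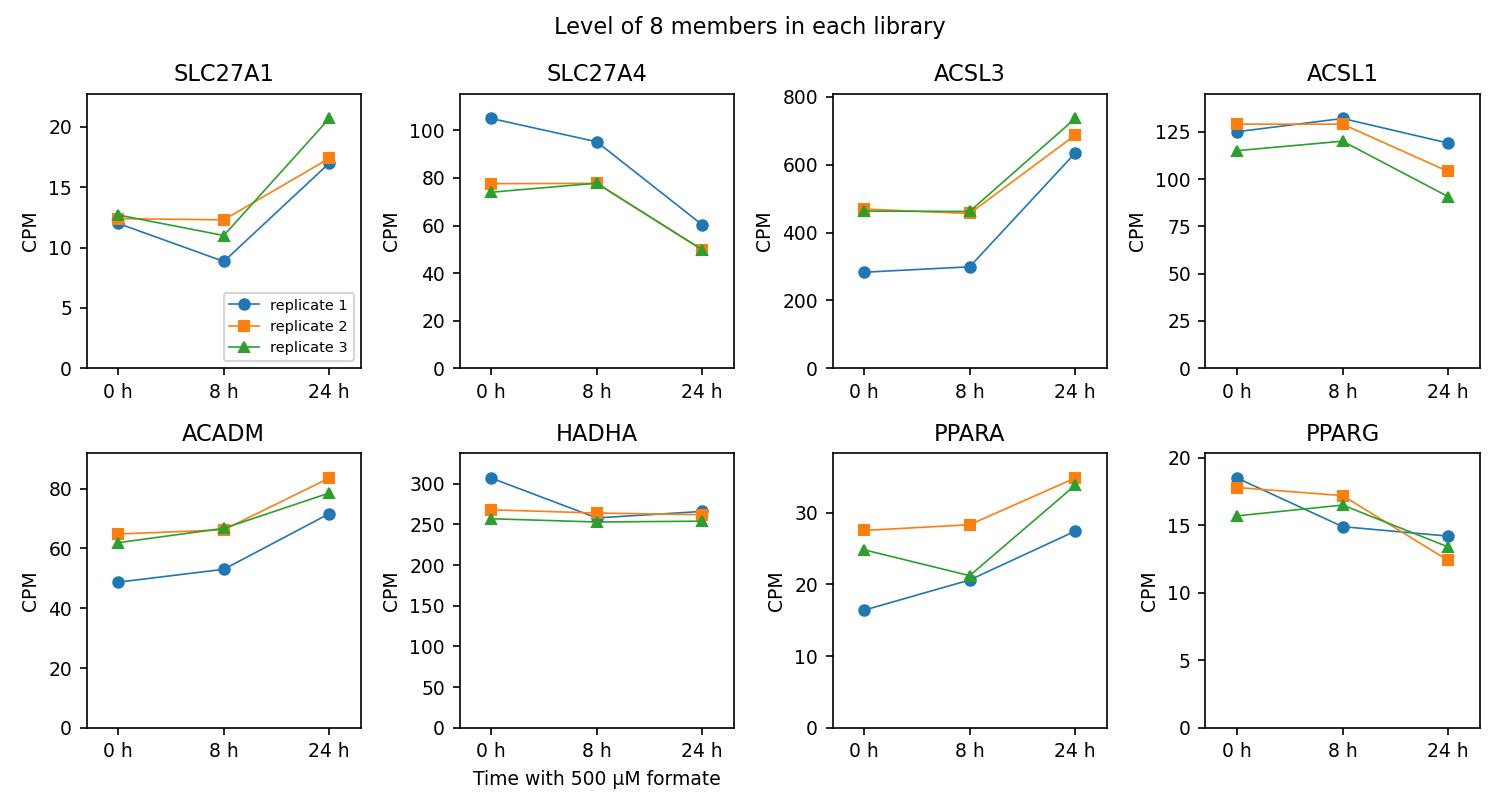
Level in CPM of 8 of the genes in each of the 9 libraries against time with 500 µM formate; symbols and lines join libraries that carry the same replicate number. In SLC27A1, ACSL3 and ACADM the 3 libraries of 24 h lie above the others, in SLC27A4 and PPARG below them, and in HADHA the times overlap. Replicate 1 is the lowest untreated library of ACSL3, ACADM and PPARA and the highest of SLC27A4 and HADHA.

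Of the 7 genes of the inner mitochondrial steps, 0 passed at 24 h against 0 h by edgeR with or without the block, DESeq2 called 0, and 1 (ACAA2) had an unadjusted p under 0.05. The edgeR shares over all tested genes were 4.25% without the block, 24.1% with it and 26.4% for the unadjusted p. With 7 genes, such counts do not set these enzymes apart. HADHA (ENSG00000084754, chromosome 2, 26190635 to 26244726, minus strand) had 307, 268 and 257 CPM untreated, 258, 264 and 253 at 8 h, and 266, 262 and 254 at 24 h. Apart from untreated replicate 1, its libraries lay within a narrow band (log2 fold change -0.09, 95% interval -0.30 to 0.12, adjusted p 0.566). HADHA and its partner HADHB, the thiolase subunit of the trifunctional protein, are neighbours on chromosome 2 on opposite strands. Their RefSeq starts lie 307 bases apart head to head, and their 250-base upstream windows share 194 bases. HADHB had 110 to 123 CPM untreated and 112 to 120 at 24 h (log2 fold change -0.02, adjusted p 0.893). ECHS1 had a log2 fold change of -0.30 (95% interval -0.65 to 0.05, adjusted p 0.241), with untreated replicate 1 at 111 CPM and the other untreated libraries at 77.5 and 69.6. ACAA2, the mitochondrial thiolase, had 10.4 to 11.1 CPM untreated and 13.3 to 13.8 at 24 h without overlap (0.31, adjusted p 0.129, and 0.0576 with the block). HADH, ECI1 and DECR1, which act on medium and short chains and on unsaturated chains, had values of 0.05, 0.01 and -0.10. The 7 genes summed to 623 ± 68.4 CPM untreated, 577 ± 12.5 at 8 h and 589 ± 10.1 at 24 h. The annotation holds 2 pseudogene copies of HADHA, so a part of its counts is uncertain.

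Among the 5 peroxisomal enzymes, values lay on both sides of 0. ECI2, which shifts double bonds in unsaturated chains, had 73.9, 49.9 and 49.1 CPM untreated, 59.2, 51.1 and 49.6 at 8 h, and 46.4, 43.4 and 41.9 at 24 h. Its 24 h libraries lay below all others, with a log2 fold change of -0.39 (standard error 0.15, adjusted p 0.139 by edgeR) and an adjusted p of 0.0226 with the block. Leaving out untreated replicate 1 moved the value to -0.19 (adjusted p 0.301). The blocked call was lost without replicate 1 of 24 h (0.117), and 29.8% of the ECI2 exons overlap genes on the opposite strand, from which unstranded counting could not tell it apart. HSD17B4, the bifunctional enzyme for very long and branched chains, had 164 to 175 CPM untreated and 186 to 207 at 24 h without overlap (0.21, adjusted p 0.196, and 0.0666 with the block). ACOX3, an oxidase for branched chains, had a log2 fold change of -0.19, EHHADH, the other bifunctional enzyme, 0.25, and ACAA1, the thiolase, -0.05. None of these 3 passed with or without the block, and on the opposite strand DLEC1 overlaps 19.7% of the ACAA1 exons and EHHADH-AS1 5.72% of the EHHADH exons. The summed level was 296 ± 17.8 CPM untreated and 306 ± 8.95 at 24 h.

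Of the 3 electron transfer genes, 0 passed at 24 h against 0 h by edgeR or DESeq2. An unadjusted p under 0.05 by edgeR was found for 0 of them. Over all tested genes 4.25% passed by edgeR and 26.4% had an unadjusted p under 0.05. With 3 genes, counts of 0 beside these shares do not set electron transfer apart. ETFB, the smaller subunit of the flavoprotein, had 57.8, 54.1 and 43.1 CPM untreated, 42.1, 52.9 and 47.2 at 8 h, and 60.8, 57.9 and 67.7 at 24 h. Its 24 h libraries lay above the others only just (log2 fold change 0.27, adjusted p 0.209, and 0.133 with the block). ETFA, the other subunit, had 130, 103 and 93.9 CPM untreated, 110, 102 and 104 at 8 h, and 101, 95.4 and 94.1 at 24 h, and untreated and 24 h libraries overlapped (-0.17, adjusted p 0.372). ETFDH, the dehydrogenase that passes the electrons to ubiquinone, had a log2 fold change of 0.07 (adjusted p 0.691), and 13.8% of its exons overlap genes on the opposite strand. The 3 genes summed to 181 ± 24.9 CPM untreated and 181 ± 5.60 at 24 h.

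The 3 PPAR receptors were all expressed, and PPARD was the most abundant per length. PPARD, the widely expressed form, had 28.1, 31.7 and 33.3 CPM untreated, 33.0, 36.0 and 33.1 at 8 h, and 33.6, 34 and 35.4 at 24 h. Its 24 h libraries lay above the untreated ones by a small margin (log2 fold change 0.15, 95% interval -0.07 to 0.36, adjusted p 0.346). PPARA, the form known for driving oxidation in liver (ENSG00000186951, chromosome 22, 46150521 to 46243756, plus strand), had 16.4, 27.5 and 24.8 CPM untreated, 20.6, 28.3 and 21.2 at 8 h, and 27.4, 34.8 and 33.8 at 24 h. The untreated and 24 h groups of PPARA overlapped by 1 library, with replicate 1 the lowest in both (0.48, standard error 0.19, adjusted p 0.146, and 0.27 with an adjusted p of 0.361 when untreated replicate 1 was left out). Paired by number, it was higher at 24 h in 3 of 3 pairs and passed with the block (0.50, adjusted p 0.00905), except without replicate 3 of 24 h (0.0519). PPARG, the form known from fat cells (ENSG00000132170, chromosome 3, 12287368 to 12434356, plus strand), had 18.5, 17.8 and 15.7 CPM untreated, 14.9, 17.2 and 16.5 at 8 h, and 14.2, 12.4 and 13.4 at 24 h. All 24 h libraries of PPARG lay below the other 6 (-0.38, standard error 0.12, adjusted p 0.083 by edgeR, 0.0342 with DESeq2, and 0.0305 with the block). That blocked call was lost without untreated replicate 2 (0.116), replicate 3 of 8 h (0.0561), and replicates 2 (0.128) and 3 (0.0605) of 24 h. PPARGC1B had 2.55 to 4.27 CPM untreated and 3.43 to 4.27 at 24 h (0.13, adjusted p 0.729).

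Set against 8 h, the 24 h libraries gave the same pair of calls. Of the 34 tested genes 2 passed, SLC27A1 higher and SLC27A4 lower, beside 4.56% of all genes by edgeR (2.84% higher and 1.72% lower). For SLC27A1 the log2 fold change was 0.78 with a standard error of 0.14 (adjusted p 0.0224), and for SLC27A4 it was -0.65 with a standard error of 0.15 (adjusted p 0.0354). The unadjusted p was under 0.05 in 10 of the 34, beside 22.8% of all genes. The SLC27A1 call was lost without replicate 1 (adjusted p 0.11) or 3 (0.0645) of 8 h, or replicate 2 (0.0987) or 3 (0.125) of 24 h. The SLC27A4 call was lost without replicate 1 (0.158), 2 (0.0581) or 3 (0.07) of 8 h, or replicate 2 (0.138) or 3 (0.17) of 24 h. ACSL3 differed by 0.76 (adjusted p 0.0599), ACAA2 by 0.37 (0.0932) and ETFB by 0.39 (0.101), and none of these passed by edgeR over all libraries. ACSL3 passed with DESeq2 (adjusted p 0.00998), with only the 8 h and 24 h libraries in the fit (0.018), with no filter on low counts (0.0471) and when untreated replicate 1 was left out (0.00969). Unblocked, 8 of the 9 fits that left out 1 library did not pass for ACSL3 (adjusted p up to 0.261 by edgeR). Its value went down to 0.56. The 8 h and 24 h libraries did not overlap for 15 of the 34 genes, 10 higher and 5 lower at 24 h, beside 34.3% of all genes (18.2% higher and 16.2% lower). The median log2 fold change was 0.11 beside 0.02 over all genes. This comparison and that with 0 h share the 24 h libraries.

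Pairs of genes that act in alternative or joint forms were also compared within each library as ratios of counts per exon length, which do not depend on library scaling. The 5 pairs were chosen after the values had been seen. SLC27A1 to SLC27A4 was 0.043, 0.0604 and 0.0645 untreated, 0.0351, 0.0599 and 0.0532 at 8 h, and 0.106, 0.132 and 0.157 at 24 h, a 2.36-fold difference between 24 h and 0 h. ACSL3 to ACSL1 was 1.97, 3.16 and 3.49 untreated, 1.96, 3.08 and 3.35 at 8 h, and 4.64, 5.74 and 7.04 at 24 h (2.05-fold). PPARA to PPARG was 0.305, 0.531 and 0.542 untreated, 0.473, 0.564 and 0.441 at 8 h, and 0.662, 0.963 and 0.863 at 24 h (1.84-fold). In each of these pairs all 24 h libraries lay above all 6 others. ETFB to ETFA, whose products form 1 complex, was 0.344, 0.404 and 0.354 untreated, 0.296, 0.398 and 0.351 at 8 h, and 0.462, 0.468 and 0.555 at 24 h (1.35-fold), again without overlap. HADHA to HADHB, the subunits of the trifunctional protein, was 2.43, 2.19 and 2.29 untreated, 2.43, 2.24 and 2.11 at 8 h, and 2.31, 2.22 and 2.07 at 24 h. The times overlapped for that pair (0.955-fold, exact two-sided permutation p = 0.5, adjusted 0.75). For each of the first 4 pairs the exact two-sided permutation p at 24 h against 0 h was 0.1. That is the smallest p that 3 libraries against 3 allow, so no ratio could pass 0.05. After Benjamini-Hochberg adjustment over 15 tests of 5 ratios the permutation p was 0.188. The adjustment does not cover the choice of the pairs after their values were seen. At 8 h against 0 h all 5 ratios overlapped between the groups.

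**Figure D4:**
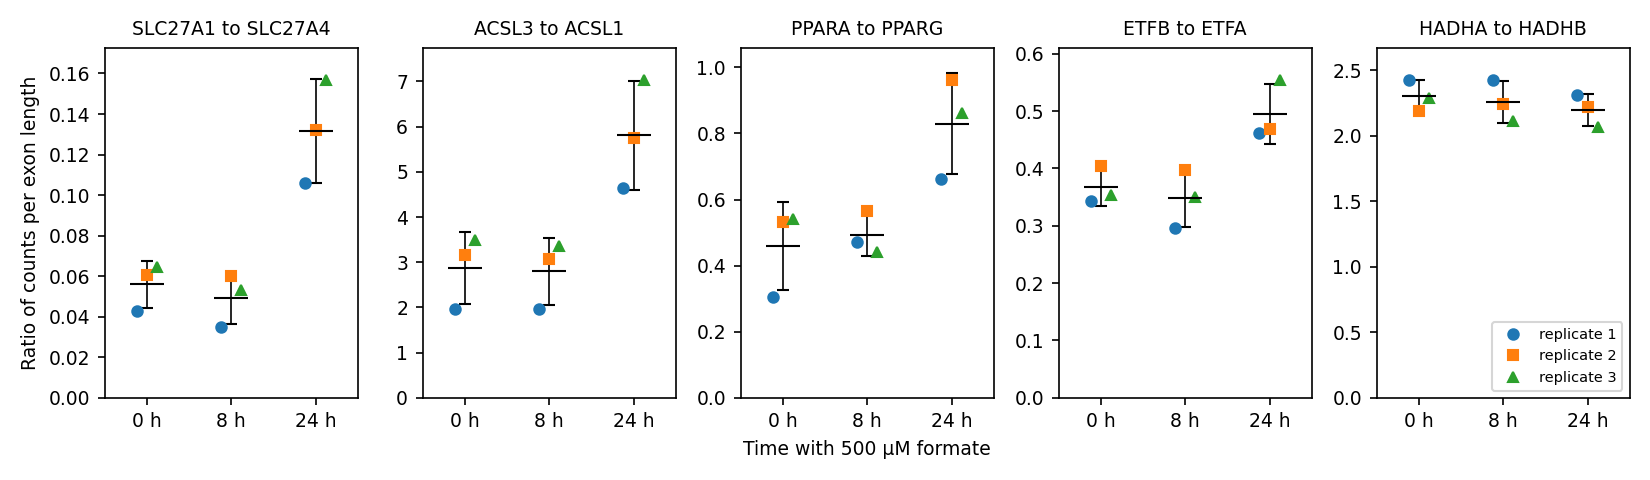
Ratio of counts per exon length for 5 gene pairs in each library against time with 500 µM formate; symbols mark the replicate number, horizontal lines the group means and bars the SD over 3 libraries. The 24 h libraries of SLC27A1 to SLC27A4 lie between 0.106 and 0.157, above the 0.0351 to 0.0645 of the other 6, while HADHA to HADHB lies between 2.07 and 2.43 at all times.

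As shares of each family's summed level per length, SLC27A1 held 5.08 ± 0.951% of the 3 SLC27 genes untreated and 10.8 ± 1.67% at 24 h, and SLC27A4 91.1 ± 1.81% and 82.8 ± 3.16%. SLC27A4 thus remained the most abundant of the 3 in every library. ACSL3 held 60.8 ± 5.18% of the 5 synthetases untreated and 72.4 ± 2.26% at 24 h, while ACSL1 held 22.1 ± 5.05% and 12.8 ± 2.28%. Among the PPAR receptors, PPARD held 55.6 ± 2.33% untreated and 59 ± 0.206% at 24 h, PPARA 13.7 ± 2.72% and 18.5 ± 2.03%, and PPARG 30.7 ± 4.05% and 22.5 ± 1.84%.

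Other genes of the pathway were read from 6 further lists, with 77 genes tested. At 24 h against 0 h, 7 of the 77 passed by edgeR, 6 higher and 1 lower, beside 4.25% of all genes, and 21 passed with the block (17 higher and 4 lower), beside 24.1% of all genes (12.6% higher and 11.6% lower). The lists for the rest of the carnitine system (0 of 9), for other mitochondrial (0 of 16) and for other peroxisomal oxidation enzymes (0 of 15) had no call without the block. An unadjusted p under 0.05 was found for 1, 4 and 3 of their genes by edgeR, beside 26.4% of all genes. DESeq2 called 1, 0 and 1 of the genes on these lists, and with the block 1, 3 and 2 passed. The list for other uptake, binding and activation proteins had 4 calls among 13 genes, 3 higher (FABP7, DBI and ACSS2) and 1 lower (CAV1). FABP7, the brain-type fatty acid binding protein, had 44.2, 50.2 and 45.4 CPM untreated, 34, 52.6 and 44.6 at 8 h, and 86.8, 110 and 136 at 24 h. Its 24 h libraries lay above all others (log2 fold change 1.25, adjusted p 0.0167), and the annotation holds 2 pseudogene copies. DBI, the acyl-CoA binding protein, went from 213 ± 23.6 to 300 ± 14.2 CPM (0.50, adjusted p 0.0345), also with 2 pseudogene copies. CAV1, the caveolar protein, went from 453 ± 22.3 to 303 ± 39.1 CPM (-0.58, adjusted p 0.0277).

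In the list of acyl-CoA thioesterases, which split acyl-CoA, 1 of 8 passed at 24 h against 0 h, beside 4.25% of all tested genes. THEM4 went from 66.1 ± 11.5 to 129 ± 10.7 CPM at 24 h (log2 fold change 0.97, adjusted p 0.017). Of 16 partners and textbook targets of the PPAR receptors, 2 passed, both higher, where 2.47% of all genes were called higher. RXRG, a form of the shared partner receptor RXR, went from 4.11 ± 1.04 to 8.98 ± 1.29 CPM (1.12, adjusted p 0.0318). At 8 h against 0 h, 0 of the 77 genes passed by edgeR or by DESeq2, and 0 had an unadjusted p under 0.05 by edgeR. Over all genes 0% passed by edgeR and 0.517% had an unadjusted p under 0.05, and the share by DESeq2 is not given here. Without replicate 2 or replicate 3 of 24 h, 0 of the 77 passed at 24 h against 0 h without the block. The share of all genes in those fits is not given here, so this loss cannot be read as particular to the pathway.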

How the data were processed

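RNA of 9 libraries of LN229 cells was made into libraries with a kit for stranded mRNA (labels' protocols). The authors deposited 1 table of raw counts, whole numbers for 23727 Ensembl genes, with no per-sample column left unused (0). Reads were demultiplexed with bcl2fastq 2.20.0.422 and aligned with STAR 2.7.4a to GRCh38, per the submitters' processing notes. The counting program, annotation release and strand setting are not given in the sources used here. Among the 39 genes, pseudogene copies and the larger opposite-strand overlaps are therefore named as a limit. Overlaps of 4.53% of the exons or less, among them those of SLC27A1, ACSL3, ACADVL and ETFB, are not named. Symbols were found for 23619 genes, and coordinates and exon lengths came from GENCODE release 29 on GRCh38 for 23252 (98.0%). Sequences are RefSeq's, and 34 of the 39 genes matched.

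The filterByExpr rule on low counts kept 15273 genes. All 9 libraries were fitted together with TMM scaling, a mean per group and edgeR 4.0.16's quasi-likelihood test in R 4.3.3, two-sided, with Benjamini-Hochberg adjustment over all tested genes and a threshold of 0.05. Levels are CPM with TMM factors, and the procedure was tested on simulated data. Alternatives were DESeq2 1.42.0, other scaling and filters, the compared groups alone, each library left out, and the replicate number as a block. Same-numbered libraries deviated together between 0 h and 8 h (r = 0.476, 0.432 and 0.414), where unlike numbers gave -0.364 to 0.0108. Between 0 h and 24 h same numbers gave 0.367, 0.164 and 0.251, and unlike numbers -0.4 to 0.27. The 0.27, of replicate 2 at 24 h with untreated replicate 3, exceeded 0.164 and 0.251. Whether the titles' numbers pair the libraries at 24 h is thus uncertain, and results with the block depend on it. Within groups, library pairs differed by at least 8.51 in chi-square per degree of freedom, so none was a repeat of another.

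Values per library are given for genes that passed in any comparison, for those that passed with the block at 24 h against 0 h with a log2 fold change of at least 0.3 in size, for CPT1A, CPT2, HADHA, ACADVL and PPARD, and for those under the count filter. From the other lists up to 3 genes that passed at 24 h against 0 h were named by smallest p, and some genes that met this rule are not reported here. ACAA2, ETFA, ETFB and the genes of the gene-pair ratios were added after their values were seen. The 39 genes and the lists were chosen with earlier results of these data known.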

Additional observations from a re-analysis of the deposited data

Results flagged for a closer look

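The comparison of 24 h with 8 h of formate tests whether the effects at both times against the shared untreated libraries differ. By edgeR, the log2 difference was 0.78 for SLC27A1 (adjusted p 0.0224) and -0.65 for SLC27A4 (adjusted p 0.0354). In both genes all 3 libraries of 24 h lay beyond all 3 of 8 h. SLC27A1 was 8.85 to 12.3 CPM at 8 h and 17.0 to 20.7 at 24 h, and SLC27A4 was 77.7 to 95.2 and 49.8 to 60.3 CPM.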

How the results depend on the processing

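The number of the 39 genes called at 24 h against 0 h was 2. It was 1 with upper-quartile scaling, 4 with DESeq2, 0 with only the untreated and 24 h libraries and 9 with the replicate block. With 1 library left out it ran from 0 to 3, and from 5 to 10 with the replicate block added. Without replicate 1 in every group, an alternative chosen after seeing the data because replicate 1 stood apart at 0 h and 8 h, it was 7, and 11 with the block. At 24 h against 8 h the r of number 2 was 0.0367, so pairing by number is uncertain there too. In that comparison the count of 2 became 4 with the compared groups alone. With the replicate block it became 10, ACSL3, ACAA2 and ETFB among them. It ran from 0 to 6 with 1 library left out (3 to 12 with the block), and was 9 and 12 without replicate 1 in every group. Over all genes, 649 calls at 24 h against 0 h became 1656 with DESeq2, 3687 with the block and 124 with the compared groups alone, and 696 at 24 h against 8 h became 1486, 3130 and 1787. With 1 library left out these counts ran from 0 to 899 and from 0 to 2545. Calls over all genes in the other fits, among them those without replicate 1 in every group, are not given here. The counts of the 39 genes and of the pathway in those fits can thus not be set against all genes. The other genes of the pathway gave 12 calls with DESeq2, 3 with the compared groups alone, 21 with the replicate block, 0 to 8 with 1 library left out (14 to 22 with the block, among them 20 when untreated replicate 3 was left out and 17 when replicate 2 of 8 h or of 24 h was), and 16 and 25 without replicate 1 in every group.

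The median log2 fold change of the tested genes was 0.00 at 8 h against 0 h without replicate 1 in every group, and 0.01 with the block. With 1 library left out it ran from 0.02 to 0.12 at 24 h against 0 h (0.01 to 0.12 with the block) and from 0.05 to 0.12 at 24 h against 8 h (0.03 to 0.13 with the block, and 0.08 with the block and no replicate 1 of 8 h). CPT1A at 24 h against 0 h changed sign: it was -0.01 without untreated replicate 1 (-0.03 with the block), -0.08 without untreated replicate 3, -0.02 lacking replicate 1 of 24 h, -0.03 lacking replicate 3 of 24 h with the block (with 1 library left out, -0.08 to 0.14), and -0.03 and -0.01 without replicate 1 in every group. Of the 14 genes refitted one by one at 24 h against 0 h, only CPT1A changed direction in the alternatives run, and every alternative gave 0 calls at 8 h. The smaller values of other genes were not traced over the alternatives. The cause of these shifts was not tested. Genes at or under 3 counts in a library could not be compared at this depth.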

Other observations

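ACSS2, the cytosolic acetyl-CoA synthetase, was the remaining call of the uptake, binding and activation list at 24 h against 0 h and was chosen here after its values were seen. Its level was 45.8, 59.1 and 60.8 CPM untreated, 36.1, 60.5 and 56.7 at 8 h, and 81.8, 103 and 111 at 24 h. All 24 h libraries lay above the other 6 (log2 fold change 0.84, standard error 0.19, adjusted p 0.0353 by edgeR's quasi-likelihood test, and 0.000209 with the replicate block). AMACR, the racemase that prepares branched-chain fatty acids for peroxisomal oxidation, had 4.9, 6.78 and 5.89 CPM untreated, 4.9, 6.56 and 4.64 at 8 h, and 9.39, 8.46 and 11.6 at 24 h. It did not pass at 24 h against 0 h (0.74, adjusted p 0.0514 by edgeR, and 0.00964 with the block), was called by DESeq2 there, and passed by edgeR at 24 h against 8 h (0.87, adjusted p 0.0326).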
